A study of Arabidopsis thaliana with 8 samples.

Results

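The regions described are the 3′ untranslated regions (3′ trailers) of nuclear Arabidopsis thaliana loci that are annotated with at least 500 bases of trailer and with a coding region (CDS). They were chosen by annotated length alone, with no use of read counts, and number 587 of the 22059 nuclear gene models with a 3′ trailer and of the 27415 models in all. Trailer length ranged from 500 to 3118 bases with a median of 643, and 208 of the 587 trailers were longer than the CDS of their own model. The other 21472 nuclear trailers, all shorter than 500 bases, serve as the comparison.

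The study examined seedlings of the Columbia-0 ecotype that had been kept in darkness for 4 days, with or without 4 h of white light before harvest. Ribosome-protected mRNA (RP) is what RNase I left undigested in a polysome preparation, so its reads mark where ribosomes or other bound particles covered the message. Steady-state mRNA was purified from the same kind of seedlings and fragmented chemically, and both kinds of RNA went through the same kind of library preparation. The 8 libraries form 4 groups of 2 repeats: RP after light, RP in the dark, mRNA after light and mRNA in the dark. It is not stated whether both repeats of a group were grown separately, and a p-value here covers the scatter among the deposited libraries only, which may be technical. Whole seedlings were used, so that fewer cells of a type and less RNA per cell cannot be told apart.

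A translating ribosome leaves the message at the stop codon with the help of release factors, and the trailer behind it is normally not read into protein. Trailers carry binding sites for RNA-binding proteins and small RNAs and the signals for cleavage and polyadenylation. In plants, a long trailer or an intron in the trailer can mark a message for nonsense-mediated decay (NMD), in which UPF1, UPF2 and UPF3 take part. Ribosome-protected reads in a trailer can come from read-through, from re-initiation, from ribosomes that were not recycled, from another transcript form in which the stretch is coding, or from particles other than ribosomes.

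The point at which reading should end is shown for 7 loci on which the results turn, as the last 21 bases of the CDS from the TAIR10.1 RefSeq annotation, 5′ to 3′ on the coding strand, with the stop codon in capitals. The set holds an NMD factor (UPF3), the longest trailer (PHOT2), a light signalling gene (SPA2), a pair of loci with dense protected reads behind the stop (AT5G21020 and AT1G58235), a locus with sparse ones (AT1G69760), and a locus that differed with light (SSP4).
UPF3: aaaccatcatccggtactTGA
PHOT2: ttggacattgacctcttcTAA
SPA2: aaagttctacagttggtcTGA
AT5G21020: ttgtttctgttttactttTAA
AT1G58235: ctctccggcggtttaggcTAG
AT1G69760: caatcagaactgttcatgTAG
SSP4: agatttggtaacaaggaaTAA
In TAIR10.1 coordinates the trailers that follow span chr1:12354402-12355023 for UPF3 (plus strand, 2 exons) and chr5:23529994-23533111 for PHOT2 (plus strand, 1 exon). The SPA2 trailer is chr4:6776676-6777225 on the plus strand and that of AT5G21020 is chr5:7139152-7139661 on the plus strand, both in 1 exon. Behind the stop codon of AT5G21020 the next codon in frame is again a stop, whereas in SPA2 37 codons lie between the stop and the next one in frame.

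A RefSeq transcript with the same CDS and trailer lengths was found for 283 of the 587 models. Their stop codons were TGA in 46.3%, TAA in 31.1% and TAG in 22.6%, against 43.7%, 35.8% and 20.5% of the 8045 matched models with shorter trailers. The trailer was interrupted by at least 1 intron in 21.6% of the long ones and in 3.87% of the shorter ones, and its median GC content was 37.3% against 31.8%. The annotated span of the locus overlapped another gene in 236 of the 520 long-trailer loci found in the reference (45.4%), against 29.9% of the shorter ones. The files do not give the strand of reads or how reads in overlaps were assigned. Which of the overlapping genes, antisense genes included, a counted read came from therefore cannot be told.

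Reads in all regions numbered 4711551 and 41699876 in the RP light libraries, 5055330 and 15357771 in the RP dark libraries, and 39036864 to 45878322 in the 4 mRNA libraries. The labels fit the light markers in both kinds of library and in both repeats: the photosynthesis genes LHCB1.1 and LHCB2.2, the light-stress gene ELIP1, the regulator HY5 and the flavonoid gene CHS were higher after light, and PORA and PHYA, known from etiolated tissue, were higher in the dark. RP dark repeat 1 stands apart in trailer reads, which made up 1.63% of its reads, against 0.566% in RP dark repeat 2 and 0.613% and 0.247% in the RP light repeats. In the mRNA libraries this share was 13.9% to 15.1%.

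The first question is how far ribosome protection ends at the stop codon of these loci. Trailer density is given throughout as reads per trailer base in percent of reads per CDS base. Pooled over the 587 loci it was 1.07% and 0.659% in the RP light libraries and 6.16% and 1.52% in the RP dark libraries. The mRNA libraries had 53.9% and 48.7% after light and 51.9% and 54.0% in the dark. All 4 RP values lay below all 4 mRNA values, with means of 2.35 ± 2.56% for RP and 52.1 ± 2.47% for mRNA (SD, n = 4 each; difference of 49.8 percentage points, two-sided exact permutation p = 0.0286, the smallest the design allows). Within 1 condition an exact test of 2 libraries against 2 cannot go below p = 0.333. By repeat, mRNA density exceeded RP density by 50.1-fold and 73.9-fold after light and by 8.43-fold and 35.6-fold in the dark.

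**Figure D1:**
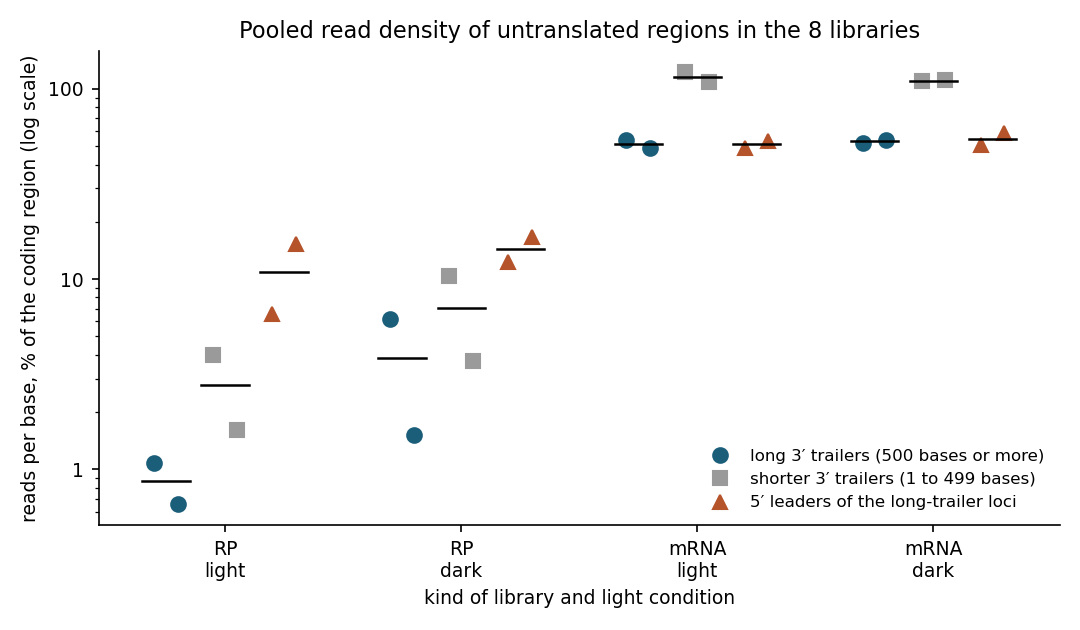
Pooled read density of long 3′ trailers (circles), shorter 3′ trailers (squares) and the 5′ leaders of the long-trailer loci (triangles), in percent of the CDS density of the same loci on a log axis. Each point is 1 library, the black line is the mean of 2 repeats, and the long trailers lie at 0.659% to 6.16% in RP and at 48.7% to 54.0% in mRNA.

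The 5′ leaders of the same loci, where scanning and upstream reading take place, held 6.56% and 15.3% in the RP light libraries and 12.2% and 16.6% in the RP dark libraries, against 49.0% to 58.8% in mRNA. Leader and trailer densities overlapped in mRNA, while in each of the 4 RP libraries the leader was denser than the trailer. This difference was not tested.

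Shorter trailers had pooled densities of 3.98% and 1.60% in RP light, 10.3% and 3.69% in RP dark, and 109% to 122% in the 4 mRNA libraries. In pooled density the long trailers stood at 0.271 and 0.412 of the shorter ones in RP light, at 0.597 and 0.411 in RP dark, and at 0.442 to 0.488 in mRNA. On the log2 scale this long-to-short ratio was −1.30 ± 0.47 in RP and −1.11 ± 0.07 in mRNA (SD, n = 4 each; two-sided exact permutation p = 0.543). The sign depended on the loci included: without models that overlap another gene the ratio was higher in RP than in mRNA by 0.33 (exact permutation p = 0.0286), and without RP light repeat 1 the difference was 0.01. Medians over loci with a CDS read were ordered otherwise in RP, except for a tie at 0% in RP light repeat 1. Long against shorter trailers had 0.417% against 0.268% in RP light repeat 2, and 4.81% against 3.135% and 1.14% against 0.327% in RP dark. In mRNA the medians were 58.5% to 69.25% against 73.05% to 87.4%. These medians were not tested. A median over loci also depends on how many have no trailer read, and shorter trailers had a median length of 195 bases against 643. Per model, an RP library held 0.227 to 1.99 trailer reads under 200 bases and 2.38 to 7.23 from 200 to under 500 bases. From 500 to under 600 bases it held 1.09 to 9.41. How far this sets the order of the RP medians was not tested.

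By pooled density the longest trailers were the sparsest in both kinds of library. Below them mRNA density was lower in longer classes up to 600 bases, and the 2 classes from 600 to under 1200 bases overlapped, while RP density showed little order. Trailers under 200 bases held 102.5% to 122% and those from 200 to under 500 bases 92.7% to 104% in mRNA. The 237 long trailers under 600 bases held 1.45% and 0.742% in RP light, 10.3% and 2.08% in RP dark, and 78.2% to 89.3% in mRNA. The 80 trailers of 1200 bases or more held 0.209% and 0.190% in RP light, 1.22% and 0.487% in RP dark, and 10.9% to 13.5% in mRNA. The 172 trailers from 600 to under 800 bases and the 98 from 800 to under 1200 bases had 0.646% to 7.49% in RP and 54.8% to 69.8% in mRNA. No class was tested against another. Pooled density also counts the trailer bases of loci without reads. The 93 loci without a CDS read in any library had a median trailer of 1249 bases and a median CDS of 159 bases. Among the loci tested singly below (n = 439), trailer length had a Spearman correlation of −0.048 with RP density and −0.257 with mRNA density. At the length limit, the 39 trailers less than 10 bases above it had 0.912% to 8.05% in RP and 72.1% to 91.7% in mRNA, and the 35 trailers up to 10 bases below it had 0.646% to 7.50% in RP and 69.9% to 77.7% in mRNA.

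**Figure D2:**
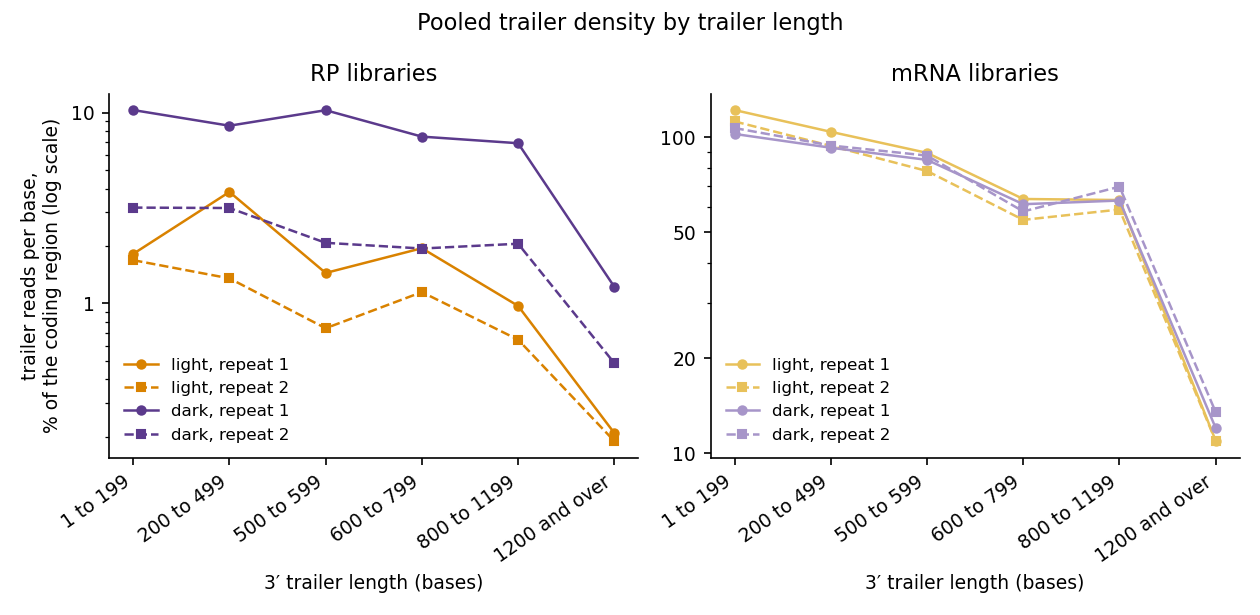
Pooled trailer density by annotated trailer length in RP (left) and mRNA (right) libraries, in percent of CDS density on log axes with different ranges. Lines join the length classes of 1 library; trailers of 1200 bases or more lie lowest in each library, at 0.190% to 1.22% in RP and 10.9% to 13.5% in mRNA.

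Locus by locus, 440 of the 587 loci had enough CDS reads to expect at least 10 trailer reads per library and were tested, without regard to their trailer reads. The tested loci had a median density of 1.54% in RP and 63.6% in mRNA, each over 4 summed libraries. The middle range (quartiles) was 0.548% to 3.74% in RP and 30.1% to 97.7% in mRNA. In RP, 166 loci were below 1%, 48 were above 10% and 6 were above the density of their own CDS, while 50 had no protected trailer read at all. In mRNA, 101 loci were above their CDS density and 2 had no trailer read. Across the loci the RP and mRNA densities had a Spearman correlation of 0.675 (n = 439 loci, which share their libraries, while both densities use the same annotated lengths).

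**Figure D3:**
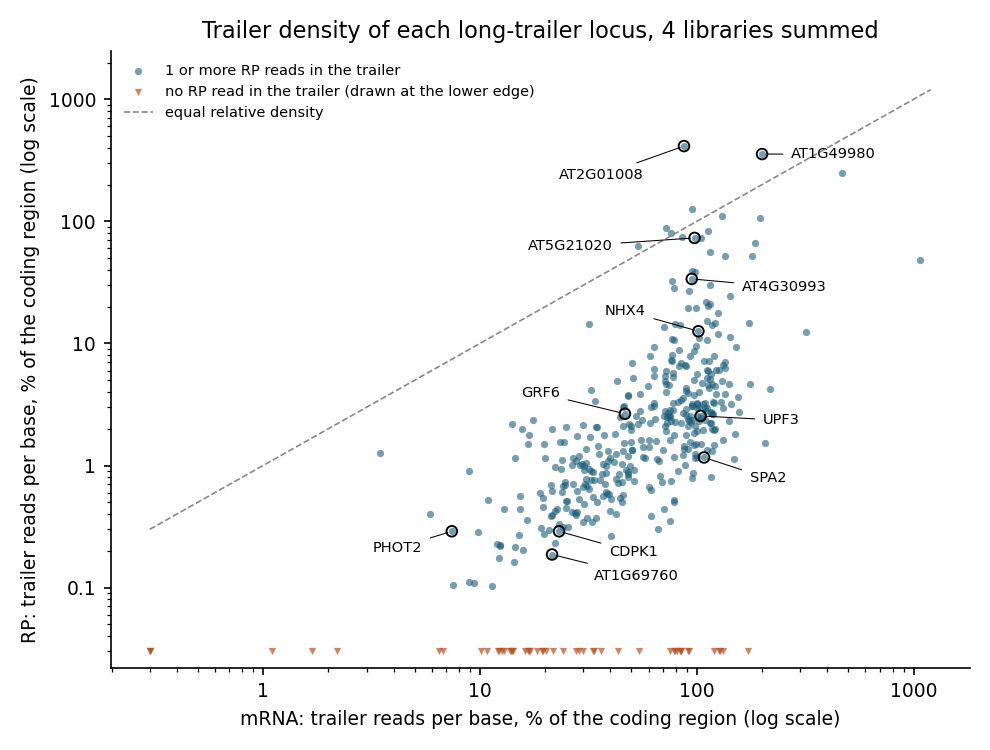
Trailer density of each tested long-trailer locus in RP (vertical) against mRNA (horizontal), 4 libraries of each kind summed, in percent of CDS density on log axes. Circled loci are named in the text, triangles mark the 50 loci without a protected trailer read, and loci without mRNA trailer reads stand at the left edge. Most points lie below the dashed line of equal density, and 6 loci exceed 100% in RP.

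In the test of trailer over CDS reads (edgeR quasi-likelihood over all 15862 loci with both regions, Benjamini-Hochberg adjusted p under 0.05), 412 of the 440 long-trailer loci were lower in RP than in mRNA after light, where 98% of all loci tested were, and 2 were higher, where 0.0504% were. In the dark 386 were lower and 0 higher, where 93.6% and 0.0567% of all loci were. The 0 stands beside 386 loci past an unadjusted p of 0.05, none of them higher, and DESeq2 also called 0 higher. Median log2 differences were −6.08 after light and −4.10 in the dark for the long trailers, against −6.44 and −4.58 over all loci. Since a difference between whole libraries in trailer reads touches every locus at once, the calls are not independent of each other.

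A second scale takes up most of the difference between whole libraries, by scaling the 16 columns of CDS and trailer counts with TMM factors (the TMM scale). Its 0 is not the median locus: over all loci the median RP-to-mRNA log2 difference on it was −1.08 after light and −0.80 in the dark, and with DESeq2 size factors −0.46 and −0.14. For light against dark the TMM medians were −0.20 in RP and −0.03 in mRNA. On the TMM scale, 34 long-trailer loci were higher and 34 lower in RP than in mRNA after light, where 1.25% and 5.84% of all loci were. In the dark 34 were higher and 40 lower, where 1.74% and 10.1% were. With DESeq2 size factors the counts were 35 higher and 8 lower after light (1.46% and 0.681% of all loci) and 53 higher and 11 lower in the dark (2.94% and 2% of all loci), so the split between higher and lower depends on the scaling. The long trailers also held more reads, with 240 expected trailer reads per library at the median against 99.96 for other loci. All higher loci lay above the median of all loci in the unscaled fit, whereas 5 of the 40 lower ones in the dark lay above it as well. Of the higher loci 20 were shared by both conditions (58.8% of each set), and of the lower ones 22 were (64.7% of the light set and 55.0% of the dark set).

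The 34 higher loci had shorter coding regions: their median CDS was 829.5 bases after light and 790.5 in the dark, against 1276 over the tested long-trailer loci, and 26.5% and 20.6% were under 300 bases, against 5.45%. The lower loci had a median CDS of 1486 bases after light and 940.5 in the dark, with 8.82% and 12.5% under 300 bases. The median RP density of the higher loci, which the selection itself favours, was 31.1% and 29.2%, against 1.54%. None of these differences was tested. Where part of the trailer is coding in another RefSeq transcript of the same locus, which held for 8 tested loci, the median RP density was 7.79% at an mRNA density of 72.6%. Trailers in 2 or more exons (48 loci) had medians of 2.202% in RP and 53.1% in mRNA, and those in 1 exon (170 loci) 1.01% and 41.5%. Trailers that lie over coding bases of another gene (82 loci) had medians of 0.725% in RP and 29.2% in mRNA, and those free of other genes' exons (94 loci) 1.35% and 72.2%.

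Protected reads behind the stop codon were as dense as in the CDS at a few loci. AT5G21020, an uncharacterized short gene with a CDS of 129 bases, had trailer densities of 47.0% and 23.0% in RP light, 130% and 100.2% in RP dark, 106% and 92.4% in mRNA light, and 99.7% and 95.2% in mRNA dark. Only the RP light libraries stood below the others. Its log2 difference between RP and mRNA was −1.76 ± 0.87 after light (SE, edgeR adjusted p = 0.0435) and 0.22 ± 0.78 in the dark (adjusted p = 0.782). It was higher by 3.86 ± 0.41 and 4.05 ± 0.29 on the TMM scale (adjusted p = 3.1e-18 and 1.9e-42). Both regions of AT5G21020 had few RP reads beside mRNA. The CDS held 7 and 66 reads in RP light and 38 and 50 in RP dark, against 1733 to 6224 in mRNA. The trailer held 13 and 60 in RP light and 195 and 198 in RP dark, against 6328 to 23431 in mRNA.

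AT1G58235, also uncharacterized and with a CDS of 225 bases, had 18.4% and 32.4% in RP light and 129% and 88.8% in RP dark, against 132% and 121% in mRNA light and 105% and 115% in mRNA dark. Its RP trailer reads were 3 and 40 after light and 46 and 26 in the dark. The CDS had only 5 and 38 RP reads after light and 11 and 9 in the dark. In the dark this CDS was itself lower in RP than in mRNA (−4.01 ± 0.61, edgeR adjusted p = 0.0327). The difference of trailer over CDS between RP and mRNA at AT1G58235 was −2.05 ± 0.48 after light (edgeR adjusted p = 2.0e-05) and 0.00 ± 0.24 in the dark (adjusted p = 0.999). At both short loci the RP light libraries lay below the mRNA libraries and the RP dark libraries overlapped them.

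AT1G49980, named as a member of the DNA/RNA polymerase superfamily, was the 1 long-trailer locus called higher in RP after light than in the dark by the unscaled fit, and 1 of 6 on the TMM scale. Its density was 290% and 460% in RP light, 79.3% and 180% in RP dark, 239% and 265% in mRNA light, and 107% and 175% in mRNA dark, so that light exceeded dark in both kinds of library. The RP change was 1.51 ± 0.40 on the log2 scale (edgeR adjusted p = 0.0190, where 0.0126% of all loci were higher), and it was not called by DESeq2 (adjusted p = 0.249) or without RP dark repeat 1 (adjusted p = 0.0850). The next gene downstream on the same strand, the F-box gene AT1G49990, starts 283 bases beyond the locus in TAIR10.1 and had 0 to 62 CDS reads per library.

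AT2G01008, a maternal effect embryo arrest protein, is given by its reads because its CDS had few in RP. Its trailer held 19 and 21 reads in RP light and 20 and 15 in RP dark, and its CDS held 3 and 0 in RP light and 10 and 1 in RP dark. The CDS reads in mRNA were 1321 and 101 after light and 764 and 74 in the dark, so the repeats differed more than the conditions. After light its difference between RP and mRNA was 3.08 ± 0.80 (edgeR adjusted p = 1.2e-04). AT4G16680, a nucleoside triphosphate hydrolase, had 99.5% and 72.9% in RP light and 182% and 83.7% in RP dark, against 123.5% to 142.7% in mRNA. These RP values rest on 3 and 11 trailer reads after light and 22 and 8 in the dark. The CDS held 6 and 30 RP reads after light and 24 and 19 in the dark. In the reference 542 of its 991 trailer bases are coding in another transcript of the locus, and 152 are coding in a gene on the opposite strand. AT1G53785, with a CDS of 147 bases, had 0 and 0 trailer reads in RP light and 20 and 9 in RP dark, against at most 4 RP reads in its CDS.

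AT4G30993, a calcineurin-like phosphatase whose span overlaps AT4G08425, had 47.9% and 15.3% in RP light, 106% and 106% in RP dark, 102% and 62.8% in mRNA light, and 142% and 114% in mRNA dark. RP light lay below the other 3 groups. The light change in RP was −2.43 ± 0.34 (edgeR adjusted p = 1.2e-08) and remained called without RP dark repeat 1 (adjusted p = 1.3e-10), though not by DESeq2 (adjusted p = 0.138) or on the TMM scale (−0.92, adjusted p = 0.110). Its CDS reads in RP summed to 790 after light and 172 in the dark, while its trailer reads were 104 and 132.

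NHX4, a vacuolar sodium/proton exchanger, and GRF6, a 14-3-3 protein, had lower RP densities, which after light were among the 6 highest relative to mRNA of the loci with at least 20 RP trailer reads and 5 in each repeat. Some loci outside these limits stood higher, such as AT4G16680, at 5.67 from the median of all loci, against 3.52 for NHX4 and 2.10 for GRF6. NHX4 had 10.4% and 14.4% in RP light and 13.2% and 9.75% in RP dark, against 92.4% and 115% in mRNA light and 105% and 93.2% in mRNA dark. GRF6 had 3.50% and 1.66% in RP light and 6.87% and 2.26% in RP dark, against 45.3% to 48.6% in mRNA. On the TMM scale after light, NHX4 was higher by 2.81 ± 0.31 (edgeR adjusted p = 6.3e-17) and GRF6 by 1.06 ± 0.24 (adjusted p = 6.8e-04). In the reference, 61 of the NHX4 trailer bases and 21 of those of GRF6 are coding in another transcript of the locus.

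At the other end stood loci with few protected trailer reads but many in mRNA. AT1G69760, described as similar to the suppressor SRP40, had 1 and 3 trailer reads in RP light and 2 and 0 in RP dark, against 322 and 385 in mRNA light and 350 and 363 in mRNA dark. Its differences between RP and mRNA were −6.83 ± 0.49 after light and −6.71 ± 0.60 in the dark (edgeR adjusted p = 1.9e-43 and 6.5e-28). From the median of all loci they stood −0.39 and −2.14 away. On the TMM scale AT1G69760 was called lower in the dark (−2.755 ± 0.76, edgeR adjusted p = 0.00472) and not after light (−1.06 ± 0.68, adjusted p = 0.435). AT5G59613, an ATP synthase gene with a CDS of 168 bases, had densities of 0.750% and 0.196% in RP light and 1.34% and 0.566% in RP dark, against 46.3% and 44.2% in mRNA light and 37.0% and 42.1% in mRNA dark. Its differences were −7.56 ± 0.36 after light and −5.84 ± 0.33 in the dark (edgeR adjusted p = 1.8e-93 and 3.3e-65), and on the TMM scale −1.73 ± 0.37 and −1.72 ± 0.30 (adjusted p = 1.7e-04 and 4.5e-07), or −1.12 and −1.26 from the median of all loci in the unscaled fit. Loci with a short CDS were thus found at both extremes.

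The splicing protein smB, the VQ-motif protein AT1G28280, the DUF569 protein AT1G59710 and the calcium-dependent kinase CDPK1 had 0.137% to 1.12%, or 0, in the RP light libraries and 0.165% to 1.59%, or 0, in the RP dark libraries, against 21.9% to 45.2% in mRNA. Of these, smB and AT1G28280 were also called lower on the TMM scale in the dark (log2 −2.03 ± 0.55 and −1.91 ± 0.61, edgeR adjusted p = 0.00383 and 0.0201), where they stood −1.19 and −1.20 from the median of all loci in the unscaled fit. The CDPK1 trailer shares 605 of its 704 bases with exons of other genes.

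After light, the 6 loci named for the lowest ratio of RP to mRNA had no protected trailer read in either library. They include SPA2, a partner of COP1 in repressing photomorphogenesis, VOZ1, a zinc-finger transcription factor, and ILL6, named as an IAA-amino acid hydrolase. The others are the EF-hand protein AT5G28850, the glycosyltransferase AT1G12990 and the rhodanese-family protein AT1G17850. With a floor of 3 reads over both RP libraries, the RP density after light was at least 109-fold lower than in mRNA at AT5G28850, 106-fold at AT1G12990, 98.4-fold at ILL6, 92.5-fold at SPA2, 66.0-fold at AT1G17850 and 60.6-fold at VOZ1. In the dark these loci had between 1 and 13 protected trailer reads each. At the median of all loci the fitted difference after light was 86.8-fold, and at the median long-trailer locus 67.9-fold. The bounds at AT1G17850 and VOZ1 lie below both values. On the TMM scale AT1G17850 and VOZ1 were not called after light (edgeR adjusted p = 0.141 and 0.140), while the others were (adjusted p from 0.0197 to 0.0346). All 544 trailer bases of AT1G17850 are also exons of other genes.

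The second question is whether 4 h of light changed where reads fall. In mRNA no long-trailer locus was called (edgeR, where 0.0063% of all loci were higher and 0.0063% lower). At an unadjusted p under 0.05 there were 15, and DESeq2 called 0. The median log2 difference was 0.09, against 0.12 over all loci. On the TMM scale 1 was higher and 5 lower, where 0.0189% and 0.0504% of all loci were, and with DESeq2 size factors likewise 1 and 5 (0.0189% and 0.0441%). The 2 loci with the smallest p were AT1G49980 (0.84 ± 0.22, edgeR adjusted p = 0.510) and the ER membrane protein AT1G74440 (1.22 ± 0.37, adjusted p = 1).

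In RP, pooled trailer density was lower after light in both repeats, by 5.73-fold in repeat 1 and 2.302-fold in repeat 2, against 2.60-fold and 2.31-fold for shorter trailers. With 2 libraries a group the smallest possible exact p is 0.333. In the test by locus, 35 long-trailer loci were lower after light, where 2.36% of all loci were, and 1 was higher. The median was −1.89, against −1.65 over all loci. All 36 had the same sign in both repeats. The high trailer share of RP dark repeat 1 moves with this result: without that library 14 were called, 11 of them among the 36, where 0.876% of all loci were lower. In a fit of the 4 RP libraries alone 0 were called by edgeR, with 20 past an unadjusted p of 0.05, and DESeq2 on all 8 libraries called 5 lower (0.706% of all loci). Leaving out RP light repeat 2, the deepest RP library, left 0 called by edgeR (11 unadjusted), and leaving out RP dark repeat 2 gave 174 lower and 3 higher, where 29.9% and 0.0441% of all loci were. Without RP light repeat 1 the median of the long-trailer loci was −2.055, against −1.73 over all loci. Without any 1 of the mRNA libraries it was −1.91 to −1.90, against −1.67 to −1.65. In each of these fits fewer long-trailer loci were called lower than in the main one.

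UBA2A, an RNA-binding protein of the UBP1-associated family with a trailer of 1035 bases, was among the 6 largest falls. Its trailer held 0 and 2 reads in RP light and 22 and 12 in RP dark, with 157 and 1334 CDS reads in RP light and 159 and 479 in RP dark. In mRNA its density was 51.7% and 50.5% after light and 57.8% and 61.6% in the dark. The RP change with light was −5.24 ± 0.90 (edgeR adjusted p = 1.7e-05; 0.00503 without RP dark repeat 1, 0.0111 by DESeq2 and 0.00308 on the TMM scale). SSP4, an SCP1-like phosphatase whose span overlaps AT5G46420, had 0 and 1 trailer reads in RP light and 16 and 9 in RP dark, and a change of −5.10 ± 1.12 (adjusted p = 0.00237; 0.0368 without RP dark repeat 1, 0.0449 by DESeq2 and 0.165 on the TMM scale).

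The kinase-like PAS protein AT3G06620, the O-fucosyltransferase AT2G01480, AT1G12990 and VOZ1 had no trailer read in either RP light library and 11, 12, 13 and 10 in the RP dark libraries together. A fitted change has no fixed size where 1 side is at 0. With the floor of 3 reads, density after light was at least 7.17-fold lower at AT3G06620, 5.87-fold at AT2G01480, 5.41-fold at VOZ1 and 5.27-fold at AT1G12990. None of these 4 was called without RP dark repeat 1 (edgeR adjusted p between 0.0656 and 0.422).

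On the TMM scale 5 of the 35 stayed lower after light, where 0.347% of all loci were lower, and 6 loci were higher, where 0.284% were. With DESeq2 size factors 5 were lower and 7 higher (0.385% and 0.315% of all loci). The 6 higher loci, named after their values were seen, were AT1G49980 (3.12 ± 0.33, edgeR adjusted p = 4.4e-17), AT2G01008 (3.70 ± 0.92, adjusted p = 0.0131), AT1G74440 (3.04 ± 0.81, adjusted p = 0.0302), AT1G31175 (2.81 ± 0.74, adjusted p = 0.0280), AT5G28919 (2.24 ± 0.45, adjusted p = 2.8e-04) and NHX4 (2.13 ± 0.38, adjusted p = 1.9e-05). Without scaling the 5 other than AT1G49980 had values of 0.19 to 1.98 that were not called (adjusted p from 0.297 to 0.923). The lower ones beside UBA2A were PHOT2, the methyladenosine-binding protein ECT2, the RNA helicase emb1138 and the ABC-F protein ABCF1, the last 3 named after their values were seen. ECT2 had 10 and 18 trailer reads in RP light and 86 and 32 in RP dark, and a change of −3.15 ± 0.93 (edgeR adjusted p = 0.0413; −1.66 ± 0.39, adjusted p = 0.00548, on the TMM scale). ABCF1 had 2 and 2 trailer reads in RP light and 29 and 15 in RP dark (−4.79 ± 1.09, edgeR adjusted p = 0.00387). At emb1138 the trailer reads were 2 and 26 in RP light and 6 and 16 in RP dark, while its CDS reads in RP summed to 24203 after light and 1506 in the dark, so the lower ratio goes with more CDS reads.

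**Figure D4:**
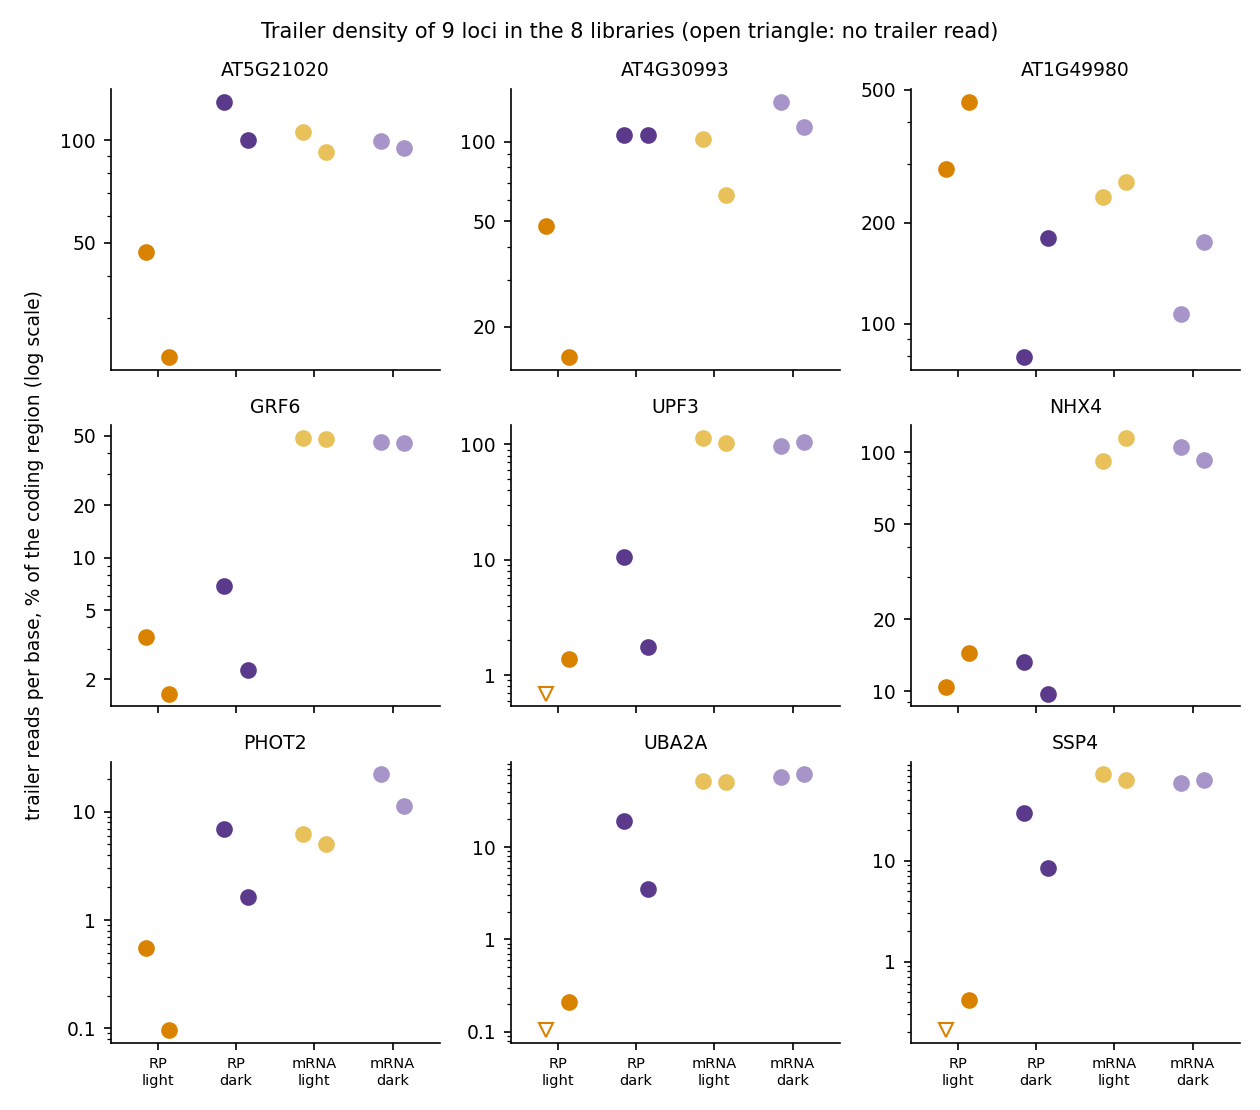
Trailer density of 9 long-trailer loci in each of the 8 libraries, in percent of CDS density on log axes that differ between panels; filled points are single libraries and open triangles mark libraries without a trailer read. The RP dark points of AT5G21020 and AT4G30993 lie at or above 100%, and those of UPF3, NHX4, UBA2A and SSP4 lie below all 4 mRNA points.

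Where the change in RP was set against that in mRNA, 22 long-trailer loci were called lower and 0 higher, where 1.08% and 0% of all loci were. All 22 were among the 36 called in RP. The 0 higher was also found by DESeq2, which called 0 lower as well, with 91 loci past an unadjusted p of 0.05, against 138 by edgeR. Leaving out RP light repeat 2 left 0 lower and leaving out RP dark repeat 2 gave 180, where 31.3% of all loci were lower. On the TMM scale 4 were lower and 4 higher (0.233% of all loci in each direction), and with DESeq2 size factors also 4 and 4 (0.366% and 0.24%).

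Gene lists of pathways that bear on trailers or on light were searched for long trailers, which 2.16% of all nuclear models have. The lists of auxin response factors, clock genes, mRNA decay factors, termination and recycling factors and miR156 targets with a site in the trailer had none. UPF3, which links exon junctions to the NMD machinery, had trailer densities of 0% and 1.38% in RP light and 10.6% and 1.74% in RP dark, against 114% and 103% in mRNA light and 97.7% and 105% in mRNA dark. Its difference between RP and mRNA was −6.46 ± 0.50 after light and −4.48 ± 0.43 in the dark (edgeR adjusted p = 4.3e-37 and 1.1e-24). Behind the UPF3 stop codon shown above, the trailer of 2 exons thus held 0% to 10.6% of CDS density in RP, against 97.7% to 114% in mRNA. From the median of all loci these differences stood −0.02 and 0.10 away. UPF3 was called on the TMM scale neither after light (edgeR adjusted p = 0.587) nor in the dark (adjusted p = 0.311), and its light change in RP was not called (−1.88 ± 1.04, adjusted p = 0.291).

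Of 17 genes of mRNA 3′ end formation 2 had long trailers. CPSF30, a subunit of the cleavage and polyadenylation complex, had 0 protected trailer reads in all 4 RP libraries and 24 and 32 in mRNA light and 24 and 20 in mRNA dark, at 13.5% to 18.9% of its CDS density. PCFS4, a Pcf11-like factor, had 2 and 0 in RP light and 1 and 1 in RP dark, against 66.5% to 79.0% of CDS density in mRNA.

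Among 25 SR proteins and splicing regulators, RSZ21 had 3.16% and 0.718% in RP light and 14.4% and 3.73% in RP dark, against 51.6% to 58.3% in mRNA, and fell with light in RP (−2.75 ± 0.72, edgeR adjusted p = 0.0173; 0.407 without RP dark repeat 1). SR34b held 1 and 4 trailer reads in RP light and 3 and 12 in RP dark beside 1 and 17 CDS reads in RP light and 6 and 8 in RP dark. Its CDS was lower in RP than in mRNA by −4.45 ± 0.64 after light and −3.83 ± 0.62 in the dark (edgeR adjusted p = 0.0323 and 0.0337). Its trailer over CDS was lower in RP than in mRNA after light (−1.59 ± 0.80, edgeR adjusted p = 0.0471) and not called in the dark (0.30 ± 0.66, adjusted p = 0.658). It was higher in RP on the TMM scale, both after light (adjusted p = 0.00269) and in the dark (4.37 ± 0.68, adjusted p = 1.3e-08).

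Of 13 photoreceptors only PHOT2, the blue-light receptor phototropin 2, had a long trailer, and it is the longest of all. Its density was 0.554% and 0.0963% in RP light, 7.01% and 1.64% in RP dark, 6.25% and 5.04% in mRNA light, and 22.3% and 11.3% in mRNA dark. The light change in RP was −4.16 ± 1.04 (edgeR adjusted p = 0.0111; −2.62 ± 0.61, adjusted p = 0.00630, on the TMM scale). In mRNA the light change was −1.50 ± 0.62 and not called. The difference between both changes was not called either (−2.67 ± 1.195, edgeR adjusted p = 0.210). In the dark RP was below mRNA by the unscaled ratio (−2.43 ± 0.79, adjusted p = 0.00255) and above it on the TMM scale (1.47 ± 0.47, adjusted p = 0.0182). Trailer reads themselves were 4 and 8 in RP light and 7 and 9 in RP dark, while CDS reads were 636 and 7325 in RP light and 88 and 485 in RP dark. Of its 3118 trailer bases 2760 are exons of the antisense gene AT5G58150, whose whole CDS of 2358 bases lies inside it. That CDS had 41 and 474 reads in RP light and 40 and 137 in RP dark, more than the PHOT2 trailer had, so not all reads in the stretch were counted for both genes. Of 24 light signalling factors only SPA2 had a long trailer, with 0 and 0 reads in RP light and 1 and 3 in RP dark, against 98.0% to 129% of CDS density in mRNA. Its coding region was well covered, with 195 and 1188 reads in RP light and 183 and 378 in RP dark.

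The other longest trailers were poorly measured. AT1G06149 (2609 bases) had no CDS read in any library but 148 to 212 trailer reads in mRNA, MAPR2 (2483 bases) had no read in either region, and AT2G27228 (2367 bases, CDS of 105 bases) had 1 protected trailer read in all. AT2G42920 (2339 bases), a pentatricopeptide repeat protein, had 11.97% and 1.38% in RP light and 47.9% and 18.7% in RP dark, against 86.0% to 123% in mRNA, and its trailer of 5 exons shares 1427 bases with exons of other genes. Of the 587 loci 93 had no CDS read in any library; their median CDS was 159 bases and 61 of them were not in the reference.

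The trailers with most mRNA reads gave the best-counted densities. BGAL1, a cell-wall beta-galactosidase, had 0.988% and 0.560% in RP light and 6.26% and 1.51% in RP dark, against 135% and 116% in mRNA light and 110% and 114% in mRNA dark, and was called lower on the TMM scale after light and in the dark (log2 −2.04 ± 0.46 and −1.49 ± 0.41, edgeR adjusted p = 4.5e-04 and 0.00460). From the median of all loci in the unscaled fit it stood −0.95 and −0.58 away. HMG1, the HMG-CoA reductase of isoprenoid synthesis, had 4.02% and 0.842% in RP light and 23.0% and 1.58% in RP dark, against 72.9% to 89.3% in mRNA, and was not called on that scale. The uncharacterized gene AT5G16110 had 8.36% and 2.86% in RP light and 71.0% and 10.6% in RP dark, against 96.1% to 112% in mRNA, and on the TMM scale it was higher in the dark (2.01 ± 0.24, edgeR adjusted p = 5.2e-15) and not called after light (0.91 ± 0.40, adjusted p = 0.171). At all 3 the value of RP dark repeat 1 was the highest of the 4 RP values. The 10 trailers with most reads held 31.4% to 40.6% of all long-trailer reads in each RP library and 23.6% to 36.9% in each mRNA library.

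A readout that the length rule does not touch is the coding region itself. Of the long-trailer loci 455 were among the 19823 loci tested for CDS reads (edgeR with TMM scaling). CDS reads were lower in RP than in mRNA at 25 of them after light and at 44 in the dark, where 2.36% and 3.87% of all loci were, and higher at 0 and 1, where 0.101% and 0.787% were. After light 134 loci passed an unadjusted p of 0.05 in either direction, and DESeq2 called 59 lower and 8 higher, where 6.13% and 2.41% of all loci were. The median log2 difference was −0.37 after light and −0.46 in the dark, against 0.01 over all loci in both. In the dark, leaving out any 1 of the 8 libraries left 0 calls by edgeR, with 100 to 142 loci past an unadjusted p of 0.05, and DESeq2 on all libraries called 78 lower and 13 higher, where 8.22% and 5.09% of all loci were. After light, leaving out a library left 13 calls where it was an RP dark library and 0 where it was any of the other 6. With the repeat number as a block, 155 of the 455 were lower and 30 higher after light, where 18.4% and 14.2% of all loci were, and 173 lower and 47 higher in the dark, where 21.1% and 19.2% were.

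Those lower in both conditions included 2 short loci already described, AT5G21020 (−4.86 ± 0.52 after light and −4.52 ± 0.50 in the dark, edgeR adjusted p = 0.0282 and 0.0266) and AT1G53785 (−5.46 ± 0.99 and −4.51 ± 0.89, adjusted p = 0.0479 and 0.0449). AT5G21020 had 7 and 66 CDS reads in RP light and 38 and 50 in RP dark, against 2085 and 1733 in mRNA light and 3900 and 6224 in mRNA dark. In mRNA, 11 long-trailer loci were higher and 3 lower after light in their CDS, where 3.34% and 1.44% of all loci were. With the block 54 were higher and 86 lower, where 19.4% and 14.2% were. The 3 lower ones, named after their values were seen, were the cytokinin oxidase CKX5 (−1.89 ± 0.39, edgeR adjusted p = 0.0484), the phytochrome-interacting factor relative PIL2 (−1.66 ± 0.34, adjusted p = 0.0493) and AT1G53450 (−1.25 ± 0.26, adjusted p = 0.0493). Leaving out a library left 0 to 7 higher and 0 lower, with 0 of either without mRNA dark repeat 1.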

How the data were processed

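Ribosome-protected and steady-state mRNA libraries of whole Arabidopsis seedlings, after light and in the dark, were compared in 4 groups of 2. The deposited tables hold read counts per gene model for the 5′ leader, the CDS and the 3′ trailer with the exon length of each region, per the file headers; 24 columns of RPKM in them were not used. The genome build was TAIR 10, per the submitters' processing notes. The aligner, the counter and how it treated strand, multiply mapped reads and overlapping genes are not given in the sources used for these results, and each could shift reads between a trailer and an overlapping gene.

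Long trailers and gene lists were chosen with earlier results of these data known. Loci were tested if the mean CDS read count per library predicted at least 10 trailer reads at equal density. CDS and trailer counts of all loci, 16 columns, were fitted with edgeR 4.0.16 in R 4.3.3 (quasi-likelihood test, with a term for each library and the region as the effect, counts as deposited), with p-values adjusted by the Benjamini-Hochberg method over all loci and a threshold of 0.05. The common biological coefficient of variation was 0.124. The main test applies no scaling between regions, because CDS and trailer come from the same library. As alternatives, TMM factors or DESeq2 size factors of the 16 columns scaled CDS and trailer columns separately, which leaves the median locus off 0. CDS counts alone were fitted with TMM scaling. Deviations of CDS counts from the group mean correlated between same-numbered libraries at 0.672 to 0.855 in all 6 pairs of groups, so CDS results are also given with the repeat number as a block; the labels do not say that a number marks shared material. Other alternatives were DESeq2 1.42.0, other filters, a replicate block, fits of the compared libraries alone, leaving out each library, and leaving out loci that overlap another gene. Pooled densities were compared with exact permutation tests (scipy 1.17.1). The fits were tested on simulated data. A fold against a group without reads uses a floor of 3 reads over the group, which covers counting error only; total reads ranged from 4711551 to 45878322 per library, and the shallow RP libraries limit trailer values to a few reads at many loci.

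Named by rule were the 6 highest and 6 lowest loci for RP against mRNA in each condition (same side of the median of all loci in both repeats, with at least 20 RP trailer reads and 5 per repeat for the highest, and at least the median mRNA trailer reads for the lowest), the 6 largest called rises and falls with light (or the 2 smallest p), the 5 longest trailers, the 5 with most mRNA trailer reads, up to 2 per gene list, and UPF3. Results for some genes that the rule names are not reported here. Transcripts were matched in the TAIR10.1 RefSeq annotation by locus and by CDS and trailer length.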

Additional observations from a re-analysis of the deposited data

Results flagged for a closer look

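The light change of trailer over CDS reads differed between RP and mRNA at 22 long-trailer loci by edgeR's test of the difference itself, all of them lower in RP, where 1.08% of all loci were lower. DESeq2 called 0 of the long-trailer loci, where 0.0189% of all loci were lower. Without RP dark repeat 1 the edgeR test called fewer of them. The median difference over the long-trailer loci was then −1.03, against −0.73 over all loci. With all libraries these medians were −1.98 and −1.77. The 6 largest differences on the log2 scale were −6.80 at AT3G06620, −6.55 at VOZ1, −6.51 at AT2G01480, −6.39 at AT1G12990, −5.25 at SSP4 and −5.02 at UBA2A. The trailers of the first 4 had no read in either RP light library, so that the fitted size there depends on the prior count of the fit and is no bound. SSP4 and UBA2A had 1 and 2 reads after light over both RP libraries, against 25 and 34 in the dark.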

How the results depend on the processing

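Without models that overlap another gene the long-to-short log2 difference between RP and mRNA was 0.33, and leaving out 1 library gave −0.37 to 0.0104 (without RP light repeat 1). The pooled RP and mRNA difference was −51.1 to −49.2 percentage points with 1 library left out, where p cannot go below 0.0571. With 1 library left out, CDPK1 in the dark ranged from −6.50 to 0.0866 on the log2 scale relative to the median of all loci, the second value without RP dark repeat 1.

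Counts are given as lower and higher. For RP against mRNA in trailers, TMM gave 34 and 34 after light and 40 and 34 in the dark, and DESeq2 size factors 8 and 35, and 11 and 53. The DESeq2 test gave 1 higher after light, where 5 of all 15862 loci were. Loci free of overlap gave 223 and 1 after light and 209 lower in the dark, from fewer loci tested (240 with long trailers). Of all 10824 such loci, 10610 and 4 were called after light and 10128 were lower in the dark. Leaving out 1 library gave median log2 differences of −6.84 to −5.97 after light for the long trailers, against −7.44 to −6.32 over all loci. In the dark they were −5.04 to −3.18, against −5.66 to −3.72. For light in mRNA, TMM and DESeq2 size factors each gave 5 and 1. The compared libraries alone gave 1 and 1, where 2 and 4 of all 15862 loci were called. With 1 library left out the median was 0.0003 to 0.184, against 0.0195 to 0.228 over all loci. For light in RP the counts were 5 and 6 with TMM, 5 and 7 with DESeq2 size factors, 5 and 0 by the DESeq2 test, 0 and 0 in the compared libraries alone, 11 lower without overlapping loci, and 0 to 174 and 0 to 3 with 1 library left out. For the difference of light changes they were 4 and 4 with TMM and with DESeq2 size factors, 0 lower by the DESeq2 test, 6 lower without overlapping loci, and 0 to 180 and 0 to 1 with 1 library left out. For CDS counts DESeq2 gave 23 and 20 (light in mRNA), 59 and 8 (RP against mRNA after light) and 78 and 13 (in the dark). Over all loci the shares were 4.58% and 6.69%, 6.13% and 2.41%, and 8.22% and 5.09%. In the dark DESeq2 size factors gave 2 higher, where 195 of all 19823 loci were. No filter gave 0 higher, where 70 of 23477 were. Leaving out 1 library gave 0 lower and 0 to 7 higher (light in mRNA), 0 to 13 lower and 0 higher (after light) and 0 and 0 (in the dark). Except where the number of loci fell, the cause was not tested.

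The repeat numbers are not stated to mark shared cultures. How far each library lay from the mean of its group was correlated between libraries with the same number, at 0.018 to 0.144 for trailer over CDS over 15862 loci. With the replicate block 18 loci were lower with light in RP and 10 in the difference of light changes, where 182 and 70 of all 15862 loci were. For CDS counts the block gave 86 lower and 54 higher (light in mRNA), 155 and 30 (RP against mRNA after light) and 173 and 47 (in the dark). Over all loci the shares were 14.2% and 19.4%, 18.4% and 14.2%, and 21.1% and 19.2%. Of the values for single loci under other settings, 410 kept their direction and side of the threshold or moved by less than the spread between repeats, 111 lost the call, 72 moved by more, 6 gained a call and 1 changed direction. Of the counts and pooled values, 118 stayed within these limits or within 1.5 times the count, 123 moved beyond them, 8 lost significance and 2 changed direction.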

Other observations

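Of the 11 long-trailer loci, among 455, whose CDS reads in mRNA were higher after light, where 3.34% of all loci were, 6 are named here after their values were seen; without mRNA dark repeat 1 none of the 11 was called. The largest log2 changes by edgeR were 4.55 ± 0.40 at WRR4, a disease resistance receptor (SE, adjusted p = 0.00619), and 3.72 ± 0.27 at AT1G75460, a LON-domain protease (adjusted p = 0.00539). The ion channel CNGC12 had 2.73 ± 0.57 (adjusted p = 0.0491) and SMZ, a repressor of flowering, 1.82 ± 0.36 (adjusted p = 0.0409). APG2, of the thylakoid protein translocase, had 1.53 ± 0.27 (adjusted p = 0.0309), and SDH2-1, of mitochondrial succinate dehydrogenase, 1.51 ± 0.25 (adjusted p = 0.0267). In each of these 6 both light libraries lay above both dark libraries, in RP as in mRNA.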
